A study of Mus musculus with 110 samples.

Results

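The genes described here are the collagen genes of the mouse: every gene whose symbol is Col, a number, the letter a and a number, with a mean of at least 1 CPM over the libraries of a tissue, CPM being the counts of a gene scaled to the size of its library. Of 44 such symbols in the count tables, 33 passed this limit in at least 1 of the 4 tissues and 11 in none. Liver held 22 members of 12509 genes at that level, interscapular brown adipose tissue (iBAT) 27 of 12698, inguinal white adipose tissue (iWAT) 31 of 13931 and epididymal white adipose tissue (eWAT) 31 of 14504. The members comprised 9 of 11 fibrillar collagens, 8 of 8 basement membrane collagens and 16 of 25 other collagens, and 22 of them were members in all 4 tissues.

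The study profiled polyadenylated RNA of these tissues from 28 wild-type male C57BL/6N mice, housed singly and 16 weeks old at the end. The mice ate a control diet (Ctrl) with 0.86% methionine or a methionine-restricted diet (MetR) with 0.12% methionine, and both diets held 0% cysteine, so the controls were also without dietary cysteine. Feeding lasted 7 days with cages kept at 22 °C (room temperature, RT), and 1 group of each diet then spent 24 h at 4 °C (cold exposure, CE). Per the study's methods this was an additional day, so the cold groups were kept 24 h longer than the RT groups. That extra time and the cold cannot be told apart. Ctrl_RT was the reference of every comparison, and the diet × temperature interaction asked whether MetR_CE differed from the sum of both separate effects. A mouse could give a library of each tissue, and within a tissue each library is 1 mouse. In the order Ctrl_RT, Ctrl_CE, MetR_RT and MetR_CE, the libraries compared numbered 7, 7, 7 and 7 in liver, 6, 6, 7 and 7 in iBAT, 7, 7, 7 and 6 in iWAT and 4, 7, 6 and 7 in eWAT.

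Collagens are secreted proteins whose chains wind around each other into a stiff helix. The fibrillar types assemble into the cables that carry tension in connective tissue. The type IV chains and the proteoglycan types XV and XVIII belong to the basement membranes that wrap adipocytes, muscle fibres and vessels. Type VI forms beaded filaments around adipocytes, and the fibril-associated types decorate the surface of the fibrils. In adipose tissue the chief makers of fibrillar collagen are fibroblasts and adipose progenitors, in liver the stellate cells and portal fibroblasts.

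Of 110 deposited libraries, 105 were compared. Those left out were Ctrl_CE replicate 5 of iBAT and Ctrl_RT replicates 2, 4 and 5 and MetR_RT replicate 7 of eWAT. Results of these tissues are also given with them. The study states how many libraries of each group it omitted but not which, and the ones left out here were inferred as those without which the mean normalized counts lay closest to the means in its source data. Total counts ran from 6987895 to 33444374 in liver and from 12672686 to 33372110 over the adipose depots. In iBAT, replicate 1 of MetR_RT, Ctrl_CE and MetR_CE carried a treatment tag of another group than their titles, and the titles were followed. Mean levels of Alb and Ucp1 were taken over the compared libraries of all groups of a tissue, treated and untreated together. Alb, the hepatocyte albumin gene, was at 45636 CPM in liver and at most 54.1 CPM in the adipose depots. Ucp1, the thermogenic uncoupling protein of brown fat, was at 10367 CPM in iBAT, 2105 in iWAT, 1.203 in eWAT and 0 in liver. The summed skeletal muscle markers spread from 2.81 CPM in a Ctrl_RT library to 21497 CPM in a MetR_RT library of iWAT, and their part in the collagen levels was not tested. Ctrl_CE replicate 3 of eWAT and of iWAT stood apart in their collagen levels, and the cold results of these depots are also given without them. Both libraries came from the same mouse, as did Ctrl_CE replicate 3 of iBAT. The fits without this mouse left it out of 1 tissue at a time.

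Which collagens each tissue expresses was read from the Ctrl_RT libraries, as CPM per kb of the longest coding transcript, scaled jointly over all tissues, so that chains of unequal length can be ranked. In liver, Col18a1, whose cleaved end is endostatin, stood far above every other collagen at 402 ± 21.8 CPM per kb. The next were Col5a3, a type V chain, at 13.7 ± 1.41 and the type IV chains Col4a2 and Col4a1 at 10.7 ± 1.72 and 10.53 ± 1.27, with the last pair closer together than their spread. In iBAT the type IV chains led, with Col4a1 at 125 ± 17.05 and Col4a2 at 102 ± 13.2, followed by Col3a1, the type III chain, at 64.9 ± 25.0. In iWAT the fibrillar chains led: Col3a1 reached 1224 ± 487, Col1a1 792 ± 358 and Col1a2 722 ± 288.4, the last pair being the chains of type I and differing by less than their spread. Col4a1 followed at 199 ± 63.0. In eWAT, Col4a1 (263.99 ± 106) and Col3a1 (243.2 ± 69.3) could not be ordered within their spread, and Col4a2 (193 ± 75.5), Col5a3 (142 ± 37.4), Col15a1 (118 ± 33.6) and Col1a2 (107 ± 16.8) came next (all mean ± SD, n as above).

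**Figure D1:**
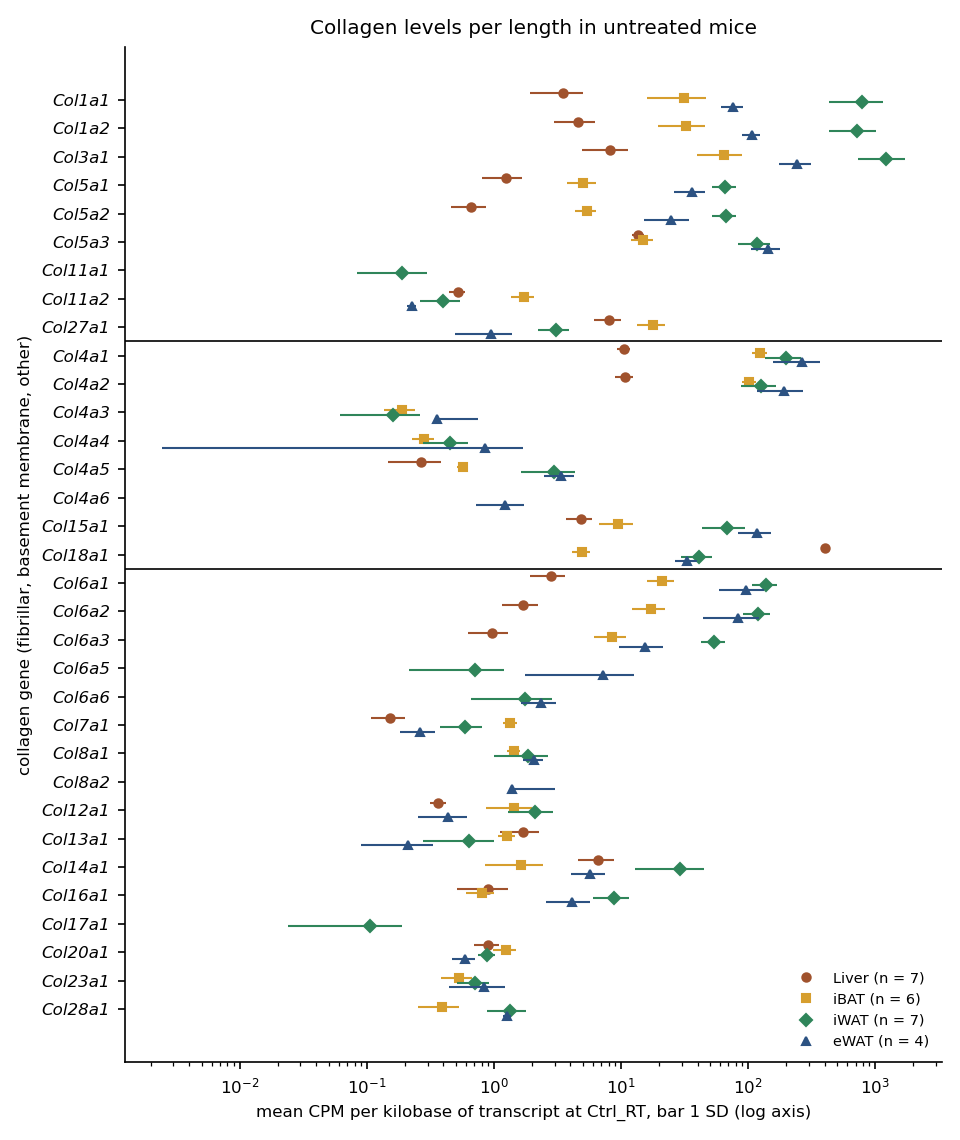
Level of each collagen member at Ctrl_RT in each tissue, in jointly scaled CPM per kb of transcript on a log axis; markers are means and lines reach 1 SD to each side (upward only where the SD exceeds the mean) over 7, 6, 7 and 4 libraries of liver, iBAT, iWAT and eWAT. Col18a1 at 402 tops liver, the type IV chains top iBAT, and Col3a1 at 1224 tops iWAT.

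Summed over a class on the same joint scale, the fibrillar collagens made 253.9 ± 53.9 CPM in liver, 1036 ± 287.2 in iBAT, 3723 ± 925 in eWAT and 17101 ± 6469.6 in iWAT. The basement membrane sums spanned a narrower range, from 1571 ± 209 CPM in iBAT to 3827 ± 1368 in eWAT, but single members did not. In liver, Col18a1 alone made 2247 ± 122 of the 2412 ± 121 CPM. Mean levels of Col4a1 and Col4a2 were 69.7 and 69.3 CPM in liver and 1746 and 1246 CPM in eWAT. In the joint edgeR fit, a member was called where the Benjamini-Hochberg adjusted p was under 0.05 and the difference at least 1.5-fold. Against iWAT, iBAT had 20 of 31 members lower and 4 higher, where 33.3% of all 32143 genes were called. Liver had 26 of 31 lower and 3 higher (45.8% of all genes called), and eWAT 14 of 33 lower and 6 higher (16% of all genes called). These shares count both directions and include genes below 1 CPM, so they are not matched to the members in level. Of 7 basement membrane members, 6 were lower and 1 higher in liver. In eWAT the classes parted: 8 of 9 fibrillar members were lower than in iWAT and none higher, whereas 4 of 8 basement membrane members were higher and none lower. The tissues came from the same mice. With the mouse as a block (limma voom), the 8 fibrillar calls stood against 2 basement membrane calls, Col4a6 and Col15a1. Col4a2 was then under 1.5-fold and Col4a3 at an adjusted p of 0.067. Col4a3 ran over 1.37, 1.46 and 8.01 CPM (lowest, median, highest) in the eWAT controls and 0.633, 1.11 and 2.89 in those of iWAT. Its eWAT mean thus rested largely on the highest library. Liver and eWAT have count tables of their own, so their library batch and tissue cannot be told apart.

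The largest collagen log2 fold changes were those of iWAT. Chains of types I and III, the type V chains Col5a1 and Col5a2 and the type VI chains Col6a1, Col6a2, Col6a3 and Col6a6 fell in the cold, under methionine restriction and in the combination, while the chains of the main basement membrane network did not pass the test in any of them. In Ctrl_CE, 15 of 31 members were lower and none higher, where 20.5% of genes of at least 1 CPM were called in either direction and 12.2% as lower. In MetR_RT, 14 members were lower and none higher (16% of such genes called, 9.62% lower). In MetR_CE, 16 were lower and 1 higher (27.9% called, 16.3% lower). The median log2 fold change (log2FC) of the members was -0.70 in Ctrl_CE, -0.37 in MetR_RT and -0.89 in MetR_CE, beside -0.03, 0.01 and 0.02 over all genes of at least 1 CPM. Of 9 fibrillar members, 5 were lower in each comparison. These 3 comparisons share the Ctrl_RT libraries.

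Col1a1 ranged from a lowest value of 2154 through a median of 4915 to a highest of 9121 CPM in Ctrl_RT. The same 3 values were 198, 1173 and 3688 in Ctrl_CE, while MetR_RT had 456, 645 and 2185 and MetR_CE had 212, 290.5 and 382. Every MetR_CE library thus lay below every Ctrl_RT library, while the other groups each had their highest library above the lowest control. The log2FC was -1.98 ± 0.48 (SE; adjusted p = 0.0023) in Ctrl_CE, -2.46 ± 0.49 (adjusted p = 0.00058) in MetR_RT and -4.16 ± 0.56 (adjusted p = 2.0e-06) in MetR_CE. Its partner chain Col1a2 followed with -1.69, -2.07 and -3.58. Col3a1, which mixes with type I in the fibrils of soft tissue, ranged over 3630.0, 7363 and 12541 CPM (lowest, median, highest) in Ctrl_RT and 438, 590.4 and 770.0 in MetR_CE. These 2 groups did not overlap either, and its log2FC was -1.78 ± 0.40, -2.30 ± 0.41 and -3.70 ± 0.46 in the same order. The type V chains Col5a1 and Col5a2, which set fibril diameter, fell by 1.18 and 1.14 on the log2 scale in Ctrl_CE and by 2.06 and 1.66 in MetR_CE. In bulk tissue, fewer cells that make a collagen and less of its RNA per cell cannot be told apart.

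Not all fibrillar members followed. Col5a3, the type V chain of adipocytes and other soft tissue, had median levels of 805, 815, 1235 and 809 CPM in Ctrl_RT, Ctrl_CE, MetR_RT and MetR_CE, and its log2FC of 0.05 ± 0.31, 0.29 ± 0.31 and -0.05 ± 0.33 passed no test. Col27a1, a fibrillar collagen known from cartilage, had log2FC of 0.48, 0.33 and 0.57, and Col11a2, a type XI chain, 0.30, 0.24 and 0.35, none of them called. Col11a1, the other type XI chain, lay near the limit with a mean of 1.36 CPM and was not called.

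Among the 15 other collagens of iWAT, 8, 7 and 9 were lower in Ctrl_CE, MetR_RT and MetR_CE. Col6a3, the long chain of type VI, ranged over 433, 632 and 837 CPM (lowest, median, highest) in Ctrl_RT, 99.2, 255.4 and 436 in Ctrl_CE, while MetR_RT had 160.4, 216 and 355 and MetR_CE had 97.6, 130.4 and 153. MetR_RT and MetR_CE lay wholly below Ctrl_RT, and the log2FC was -1.26 ± 0.25, -1.39 ± 0.25 and -2.30 ± 0.27 (adjusted p from 4.5e-07 to 0.00037). The short chains Col6a1 and Col6a2 fell by 1.81 and 1.97 in MetR_CE. Col6a6, a type VI chain that can take the place of Col6a3, fell by 1.56, 1.29 and 3.39. Col6a5, a chain of the same kind, was below 1 CPM in every MetR_CE library (0.0524 to 0.795) and at 2.77, 5.80 and 16.3 CPM in Ctrl_RT, with a fitted log2FC of -4.57 ± 0.88. In Ctrl_CE its -1.66 ± 0.69 was not called (adjusted p = 0.067). The MetR_RT calls of Col6a5 and Col6a6 were lost in 4 and 7 of 14 fits that each left out 1 library of the groups compared. They were lost for both genes without Ctrl_RT replicate 6 or MetR_RT replicates 1, 3 or 6 and for Col6a6 also without Ctrl_RT replicate 5 or MetR_RT replicates 4 or 7, with the log2FC of Col6a6 between -1.69 and -0.98.

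The fibril-associated collagens fell as well. Col14a1 ranged over 121, 161 and 408 CPM in Ctrl_RT and 22.4, 31.2 and 73.1 in MetR_CE, without overlap, with a log2FC of -2.58 ± 0.49. In Ctrl_CE it fell by 1.58, and in MetR_RT its -1.12 was not called (adjusted p = 0.065). Col16a1, which bridges fibrils and cells, fell by 1.503, 1.41 and 2.50. Col20a1, a low-level member of the family, fell by 0.70 in Ctrl_CE and 0.89 in MetR_CE. Col12a1, which links fibrils to the matrix around them, had median levels of 28.5, 9.02, 5.24 and 8.59 CPM in the 4 groups. It was the only collagen of iWAT with a called diet × temperature interaction (1 of 31, where 2.81% of genes of at least 1 CPM were called): its log2FC of -1.69 in Ctrl_CE and -1.85 in MetR_RT did not add up to the -1.36 of MetR_CE, with an interaction of 2.19 ± 0.46 (adjusted p = 0.014). DESeq2 gave it 2.15 unshrunk, and with apeglm shrinkage 0, which ended the call. Col13a1, a transmembrane collagen, was the member that was higher, by 0.87 ± 0.30 in MetR_CE, a call lost in 5 of 13 fits that each left out 1 library (Ctrl_RT replicates 1, 5 and 6 and MetR_CE replicates 4 and 5).

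The promoters of 3 of the fibrillar genes that fell are shown for the sequence just before their start, in the 250 upstream bases of RefSeq annotation on GRCm38.p6, plus strand. Capitals mark CCAAT or TATAAA, each searched on both strands (as ATTGG and TTTATA on the other). The first, Col1a2, is chr6:4505368-4505617, the second, Col3a1, is chr1:45311288-45311537, and the last, Col5a1, is chr2:27886175-27886424.
Col1a2: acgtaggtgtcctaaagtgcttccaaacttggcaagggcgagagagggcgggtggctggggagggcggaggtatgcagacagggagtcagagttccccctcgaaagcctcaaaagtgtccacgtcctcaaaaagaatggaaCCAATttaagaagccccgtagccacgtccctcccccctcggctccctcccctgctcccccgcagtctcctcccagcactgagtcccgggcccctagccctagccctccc
Col3a1: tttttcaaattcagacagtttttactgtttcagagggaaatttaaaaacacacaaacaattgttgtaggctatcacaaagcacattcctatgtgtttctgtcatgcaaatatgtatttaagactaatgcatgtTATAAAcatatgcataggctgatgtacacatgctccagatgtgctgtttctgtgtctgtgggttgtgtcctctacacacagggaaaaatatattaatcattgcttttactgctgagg
Col5a1: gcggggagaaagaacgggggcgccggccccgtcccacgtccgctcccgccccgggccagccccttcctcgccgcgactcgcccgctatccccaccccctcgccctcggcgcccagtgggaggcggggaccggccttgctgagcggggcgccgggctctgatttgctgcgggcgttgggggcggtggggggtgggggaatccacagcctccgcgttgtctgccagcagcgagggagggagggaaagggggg
By these letters the starts differed: Col1a2 held 1 CCAAT and 62.0% G and C, Col3a1 held 1 TATAAA and 35.2%, and Col5a1 neither and 76.4%. Of 30 windows of the 28 members with an entry, 10 held CCAAT (33.3%) and 4 held TATAAA (13.3%). Among all 32851 windows the shares were 33.8% and 12.4%, so the members pooled held both at about that rate. By class, CCAAT and TATAAA were in 42.9% and 28.6% of 7 fibrillar windows and 50% and 0% of 8 basement membrane windows. The 15 windows of other collagens had 20% and 13.3%. Differences between classes with so few windows were not tested.

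Of the 7 basement membrane collagens of iWAT, 2 were lower in each comparison and none higher. Col4a1 ranged over 836, 1731 and 2042 CPM in Ctrl_RT, 1099, 1209 and 2002 in Ctrl_CE, while MetR_RT had 829.1, 1478 and 1837 and MetR_CE had 1153, 1379 and 1855, with all groups overlapping. Its log2FC was -0.20 ± 0.19, -0.09 ± 0.19 and -0.07 ± 0.20, and that of Col4a2, the other chain of the common type IV trimer, 0.13 ± 0.20, 0.13 ± 0.20 and 0.30 ± 0.20, none of them called. In both genes the highest Ctrl_CE library was replicate 3, at 2002 CPM of Col4a1. Without that library the Ctrl_CE log2FC was -0.33 ± 0.19 for Col4a1 and 0.00 ± 0.19 for Col4a2, still not called, and 15 members of iWAT were called as with it. Col15a1, a basement membrane proteoglycan, was not called (0.21, 0.19 and 0.10). Those that were lower were Col18a1, by 0.72, 0.77 and 0.94, and Col4a5, a chain of the less common type IV trimers, by 0.98, 1.54 and 2.21. In Ctrl_CE, leaving out 1 library ended the call of Col18a1 (Ctrl_RT replicate 1 or Ctrl_CE replicate 4) and of Col4a5 (Ctrl_RT replicate 6).

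**Figure D2:**
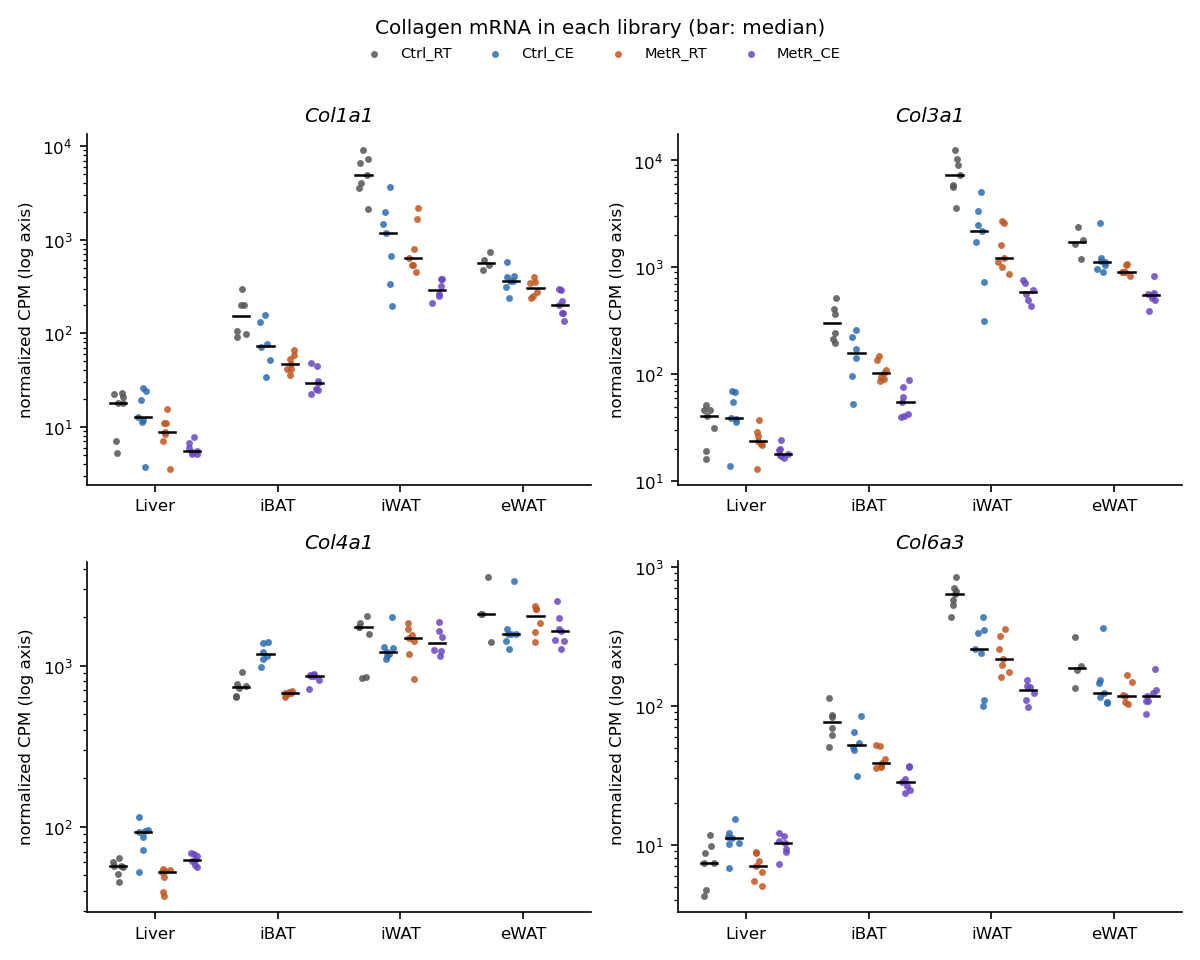
Level of Col1a1, Col3a1, Col4a1 and Col6a3 in every library compared, in CPM on a log axis, by tissue and group; each point is 1 mouse and each bar the group median. In iWAT the MetR_CE libraries of Col1a1, between 212 and 382, lie below all Ctrl_RT libraries, while the groups of Col4a1 overlap.

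Marker genes of several cell types also changed in iWAT, not all in the direction of these collagens. Of 12 fibroblast and adipose progenitor markers, 9, 6 and 10 were lower in Ctrl_CE, MetR_RT and MetR_CE and none higher, and their summed level ran from 6693 to 11023 CPM in Ctrl_RT, 5070.3 to 9020.0 in Ctrl_CE, 4486 to 8866 in MetR_RT and 4360.0 to 8311 in MetR_CE. Of 8 macrophage markers, 7, 6 and 7 were lower and 1, 0 and 1 higher, with sums of 1384 to 2251 CPM in Ctrl_RT, 310.4 to 1561 in Ctrl_CE, 263.5 to 1086 in MetR_RT and 214 to 505 in MetR_CE. Of 7 brown adipocyte markers, 6 were higher in each comparison. Endothelial markers had 0, 1 and 2 of 10 higher and none lower. The part of these cell types in the collagen levels was not tested.

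In iBAT the chains of types I and III and the type VI chains Col6a1 and Col6a2 were lower in all 3 comparisons, while the main type IV chains were higher in the cold. In Ctrl_CE, 11 of 27 members were lower and 3 higher, where 16.9% of genes of at least 1 CPM were called and 10% as lower. In MetR_RT, 12 were lower and none higher, where 3.34% were called and 2.5% as lower. In MetR_CE, 18 were lower and 2 higher, where 17% were called and 10.9% as lower. With the left-out library the counts were 11 lower and 4 higher (14.9% of all genes tested called), 12 lower (2.51% called), and 18 lower and 2 higher (14.7% called). Leaving out any 1 library gave 12 to 19 calls in Ctrl_CE (19 without Ctrl_CE replicate 3), 10 to 13 in MetR_RT and 19 to 20 in MetR_CE. No member had a called interaction in edgeR (0.606% of genes of at least 1 CPM called), 9 had an unadjusted p under 0.05 and DESeq2 called none.

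Of 8 fibrillar members of iBAT, 5 were lower in MetR_RT, 5 in MetR_CE and 3 in Ctrl_CE, each against Ctrl_RT. MetR_CE was not compared with Ctrl_CE, so its counts include the effect of the cold. Col1a1 ranged over 90.7, 153 and 296.3 CPM in Ctrl_RT, 35.5, 46.9 and 65.9 in MetR_RT and 22.5, 29.4 and 48.6 in MetR_CE, and neither of the latter reached the controls. Its log2FC was -1.75 ± 0.29 (adjusted p = 0.00028) and -2.36 ± 0.29 (adjusted p = 2.3e-07). In Ctrl_CE it ranged over 33.96, 73.7 and 156 CPM, overlapping the controls, with a log2FC of -0.93 ± 0.29 (adjusted p = 0.014) that was no longer called without Ctrl_RT replicate 5 (adjusted p = 0.067). Col1a2 fell by 0.88, 1.66 and 2.27 and Col3a1 by 1.04, 1.56 and 2.49 in Ctrl_CE, MetR_RT and MetR_CE. Col5a1 and Col5a2 fell by 1.08 and 0.67 in MetR_RT and by 1.51 and 1.10 in MetR_CE. In Ctrl_CE their adjusted p of 0.027 and 0.012 went with changes under 1.5-fold. Col27a1 and Col5a3 were not called, and Col11a2 was higher by 0.71 ± 0.17 in MetR_CE.

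The main type IV chains rose in the cold in iBAT. Col4a1 ranged over 635, 737 and 910.4 CPM in Ctrl_RT and 986, 1175 and 1392 in Ctrl_CE, and Col4a2 over 513, 581 and 718 and 847, 1095 and 1337. For both chains every cold library lay above every control. The log2FC was 0.70 ± 0.08 (adjusted p = 3.5e-08) and 0.91 ± 0.09 (adjusted p = 3.0e-09), in 12 of 12 fits that left out 1 library. In MetR_CE the same chains were at 711, 865 and 891 and 646, 783 and 840.5 CPM, with log2FC of 0.18 ± 0.08 and 0.37 ± 0.09 that did not reach 1.5-fold. Their interaction was -0.38 ± 0.11 (adjusted p = 0.086) and -0.38 ± 0.12 (adjusted p = 0.13), so a smaller cold response under restriction was not shown. Markers of endothelial cells, which also make basement membrane, had 0 of 10 higher and 1 lower in Ctrl_CE. They summed to 863 to 1012 CPM in Ctrl_RT and 869.6 to 1115 in Ctrl_CE. Of 7 brown adipocyte markers, 4 were higher in Ctrl_CE. The part of these cell types in the type IV levels was not tested. The left-out Ctrl_CE replicate 5 summed to 2135 CPM of basement membrane collagens, within the range of the other cold libraries.

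The other 5 of 7 basement membrane members were lower in MetR_CE, Col18a1 by 0.98, Col15a1 by 0.83, Col4a4 by 0.99, Col4a5 by 0.82 and Col4a3 by 0.60, the last call lost without Ctrl_RT replicates 2, 4 or 5 or MetR_CE replicate 6. In Ctrl_CE, Col4a4 alone of them was called (-0.62), and lost without Ctrl_RT replicates 2 or 4 or Ctrl_CE replicates 2, 4 or 7. Of the other collagens, Col13a1 was the member with the largest rise, from 2.86, 3.49 and 4.42 CPM in Ctrl_RT to 4.46, 10.9 and 12.7 in Ctrl_CE without overlap, a log2FC of 1.46 ± 0.17 (adjusted p = 1.0e-07), and by 0.92 ± 0.17 in MetR_CE. Col23a1, also a transmembrane collagen, fell by 1.24, 0.74 and 1.65 in the 3 comparisons (the MetR_RT call lost without Ctrl_RT replicates 2 or 3 or MetR_RT replicates 2, 4 or 7), and Col20a1 by 1.09, 0.73 and 1.26. Col7a1, the chain of the anchoring fibrils under epithelia, and Col28a1, a collagen of peripheral nerve, fell by 0.93 and 0.92 in Ctrl_CE. Col8a1, a short-chain network collagen of vessel walls, had a log2FC of 0.58 ± 0.11 (adjusted p = 9.5e-05), just under 1.5-fold. Col28a1 lay just above the limit at a mean of 1.05 CPM, with Col6a6 just below it at 0.942, and lost its call without Ctrl_RT replicate 5. Col12a1 and Col14a1 fell by 1.07 and 1.05 in MetR_RT, the latter call lost in 8 of 13 fits (those without Ctrl_RT replicates 2, 3 or 5 or MetR_RT replicates 3 to 7). The type VI chains Col6a1, Col6a2 and Col6a3 fell by 1.32, 1.52 and 1.39 in MetR_CE. In Ctrl_CE, Col6a1 and Col6a2 fell by 0.71 and 0.71 and Col12a1 by 0.75, calls lost without Ctrl_CE replicate 4 (Col6a1 and Col6a2), Ctrl_RT replicate 6 (Col6a2) or Ctrl_RT replicate 2 (Col12a1). Beside these falls, 3, 7 and 9 of 12 fibroblast and adipose progenitor markers and 0, 4 and 6 of 7 macrophage markers were lower in Ctrl_CE, MetR_RT and MetR_CE (1, 0 and 1 of the first higher). The first summed to 535 to 903 CPM in Ctrl_RT, 421 to 703 in Ctrl_CE, 391 to 563 in MetR_RT and 346 to 651 in MetR_CE. Their part was not tested.

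Liver had more collagens higher than lower in the cold, and more lower than higher in the combination. In Ctrl_CE, 6 of 22 members were higher and 1 lower, where 14.8% of genes of at least 1 CPM were called in either direction and 10.1% as higher. In MetR_RT, 1 was higher and 2 lower (8.74% called), a share near the background. There DESeq2 with apeglm shrinkage called only 1 member. Fits that left out 1 library were not run in liver, so its calls were not tried in that way. In MetR_CE, 3 were higher and 6 lower (16.5% called, 7.68% as lower), and 5 of these 6 were fibrillar, of 8 fibrillar members.

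In the cold the leading liver member by change was Col14a1, with 24.7, 32.8 and 53.7 CPM (lowest, median, highest) in Ctrl_RT and 48.1, 80.7 and 99.1 in Ctrl_CE. The highest control lay above the lowest cold library, and the log2FC was 1.16 ± 0.15 (adjusted p = 1.3e-06). In MetR_CE it was 0.63 ± 0.15, and this was the only liver member with a called interaction (1 of 22, where 1.74% of genes of at least 1 CPM were called), of -0.82 ± 0.22 (adjusted p = 0.045). With the replicate number as a block this call was lost at an edgeR adjusted p of 0.054. Col13a1 rose by 1.12 ± 0.19 in Ctrl_CE and 1.15 ± 0.19 in MetR_CE. Col4a1 ranged over 45.1, 56.9 and 63.5 CPM in Ctrl_RT and 52.2, 92.3 and 114 in Ctrl_CE, a log2FC of 0.64 ± 0.12, while Col4a2 at 0.56 ± 0.13 (adjusted p = 0.0018) was under 1.5-fold. Col15a1 (0.80), Col5a1 (0.80) and Col4a5 (0.75) were the others that rose, and Col20a1 fell by 0.82. Endothelial markers were higher for 8 of 10 genes, pericyte, stellate and smooth muscle markers for 7 of 11 and macrophage markers for 6 of 8 in the same comparison, and none was lower. The endothelial sum ran from 143 to 187 CPM in Ctrl_RT and from 224 to 369.9 in Ctrl_CE, and its part was not tested.

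Col18a1, the dominant liver collagen, ranged over 1611, 1762 and 1937 CPM in Ctrl_RT, 1319, 1623 and 1807 in Ctrl_CE, while MetR_RT had 1507, 1655 and 1751 and MetR_CE had 1498, 1682 and 1762. All groups overlapped, and its log2FC lay between -0.15 and -0.13 with no call. Of the 6 members that fell in MetR_CE, Col20a1 was the one not fibrillar (-0.72). Col1a1 was at 5.30, 17.98 and 23.1 CPM in Ctrl_RT and 5.15, 5.54 and 7.76 in MetR_CE, a log2FC of -1.47 ± 0.33 (adjusted p = 0.00085), with the groups overlapping. Col3a1 fell by 0.92, Col1a2 by 0.65 and Col5a3 by 0.73 in MetR_CE. Col27a1 fell by 0.89 in MetR_RT and 0.77 in MetR_CE, and Col5a2 by 0.59 in MetR_RT. Col11a2 rose by 0.69 ± 0.21 and 0.76 ± 0.22 in the same 2 comparisons. Col6a1, Col6a2 and Col6a3 were not called in any comparison. Beside these falls, endothelial markers were higher for 9 of 10 genes and pericyte, stellate and smooth muscle markers for 5 of 11 in MetR_CE, and none of either was lower. Col7a1, just above the limit at 1.13 CPM, was not called, and Col8a1, a short-chain network collagen, lay just below it at 0.917.

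eWAT had few called collagens, with only 4 control libraries compared. In Ctrl_CE, 1 of 31 members was lower (3.99% of genes of at least 1 CPM called). In MetR_RT edgeR called none (0.207% called), with 8 members at an unadjusted p under 0.05, while DESeq2 called 3 as lower, Col1a1, Col1a2 and Col3a1. In MetR_CE, 4 were lower and none higher (2.13% called, 1.12% as lower). Interactions were called for none by edgeR (3.93% called), with 2 members at an unadjusted p under 0.05, and DESeq2 called Col11a2.

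The eWAT controls had 600.4, 538, 478 and 731 CPM of Col1a1, and MetR_CE ranged over 137, 202 and 299. All of MetR_CE lay below the controls, with a log2FC of -1.48 ± 0.21 (adjusted p = 0.00038). MetR_RT, at 240.1, 307 and 403, also lay below every control, with a log2FC of -0.92 ± 0.22 and an adjusted p of 0.096. The controls had 1790.2, 1669, 1201 and 2386 CPM of Col3a1, and MetR_CE 391, 555 and 834, again without overlap, a log2FC of -1.65 ± 0.23 (adjusted p = 0.00035). Col1a2 fell by 1.14. The remaining call, Col6a6, by 1.17 (adjusted p = 0.032), was lost in 7 of 11 fits that left out 1 library (Ctrl_RT replicates 1, 3 or 6 or MetR_CE replicates 2, 5, 6 or 7). Col20a1, the call of Ctrl_CE, fell by 0.77 and was lost in 5 of 11 such fits (Ctrl_RT replicates 1, 3 or 7 or Ctrl_CE replicates 6 or 7). Col4a1 and Col4a2, the leading basement membrane chains, had log2FC of -0.36 and -0.10 in the cold. MetR_RT gave -0.22 and -0.06 and MetR_CE -0.41 and -0.13, and none of these was called.

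With all 28 eWAT libraries, 2 members were lower in Ctrl_CE (8.25% of all genes tested called), none was called in MetR_RT by edgeR (0.0191% called), and in MetR_CE 8 were lower and 1 higher (10.4% called). Without Ctrl_CE replicate 3, whose Col6a1 of 997.7 CPM stood above a next highest of 364, the Ctrl_CE count was 4, adding Col1a1 (-0.74), Col3a1 (-0.71) and Col6a3 (-0.70). Fibroblast and adipose progenitor markers were lower for 1, 0 and 2 of 12 genes in Ctrl_CE, MetR_RT and MetR_CE, and their MetR_CE sum of 8759.8 to 11786 CPM overlapped the 8569 to 12520.3 of Ctrl_RT. Epididymal epithelium markers reached 1280.0 CPM in 1 MetR_RT library and 8404 in the left-out Ctrl_RT replicate 2, and their part was not tested. Col13a1 lay just above the limit in eWAT at a mean of 1.11 CPM and the transmembrane Col17a1 of epithelial anchoring just below it at 0.908. In iWAT Col17a1 lay just above at 1.01, with 1 Ctrl_CE library at 12.03 CPM and the other 6 at most at 0.711, and Col24a1, a fibrillar collagen, just below at 0.850.

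**Figure D3:**
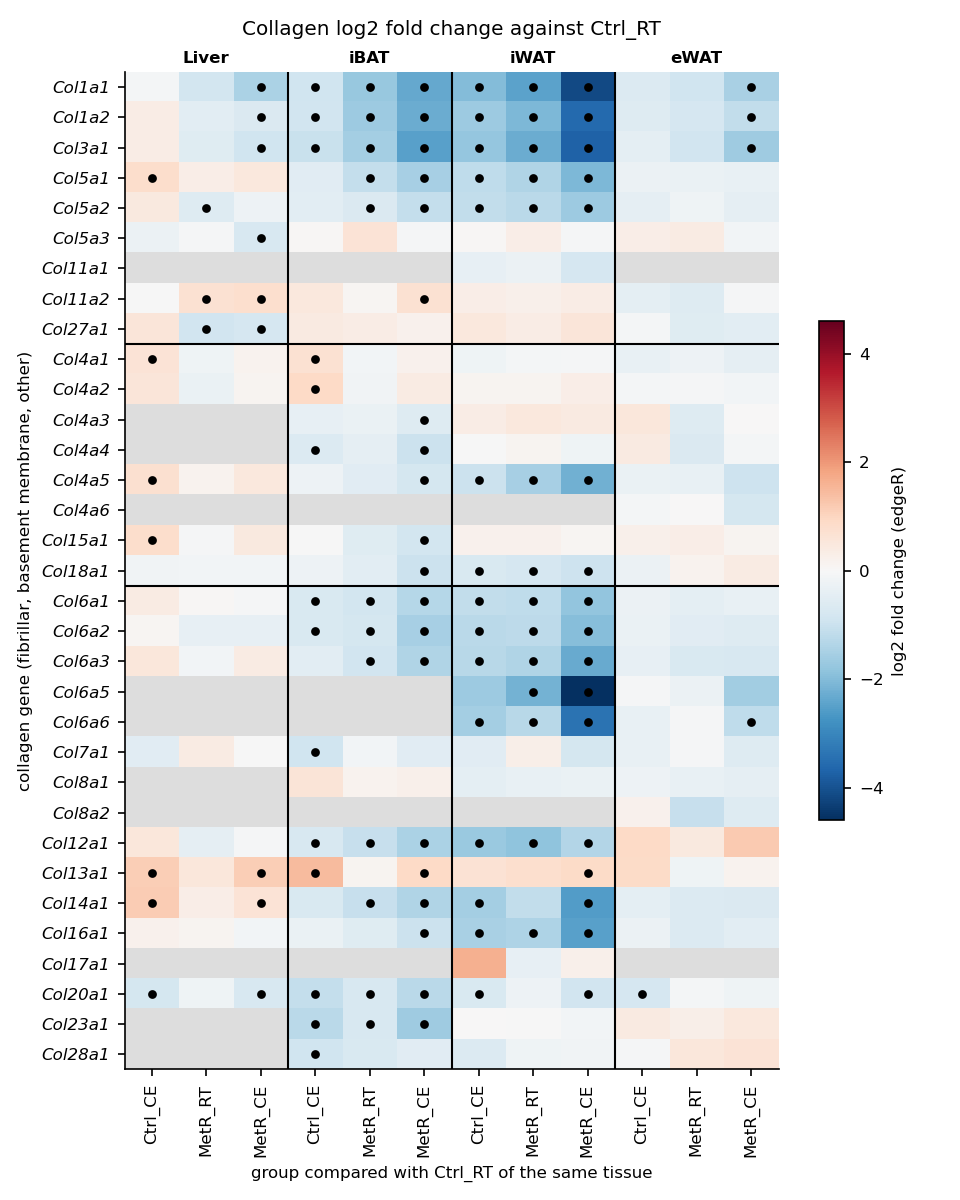
Log2 fold change against Ctrl_RT of every collagen member (rows, by class) in each tissue and comparison (columns); dots mark calls (adjusted p under 0.05 and at least 1.5-fold, edgeR) and grey cells are genes below the limit in that tissue. The lowest cells are in the iWAT MetR_CE column, with Col6a5 at -4.57 and Col1a1 at -4.16.

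Whether an effect differed between tissues was tested in the joint fit. Its shares are again over all genes tested, with those below 1 CPM included. The cold effect in iBAT minus that in iWAT was called for 5 of 31 members (8.15% of all genes called), 4 of them higher in iBAT. Col4a1 differed by 0.91 ± 0.24 (adjusted p = 0.0044), Col4a2 by 0.79 ± 0.25 (adjusted p = 0.019) and Col8a1 by 1.02 ± 0.26. Col16a1 differed by 1.197 ± 0.42, a call lost with the mouse as a block (adjusted p = 0.060), and Col23a1 by -1.24 ± 0.38. No fibrillar member was among them, and for Col1a1 the difference was 1.05 ± 0.51 (adjusted p = 0.19). The cold effect in iWAT minus that in eWAT was called for 2 of 33 (4.18% of all genes called), Col12a1 by -2.61 ± 0.44 and Col16a1 by -1.24 ± 0.41. Without Ctrl_CE replicate 3 of iWAT, the difference between iBAT and iWAT was 1.02 ± 0.24 for Col4a1 and 0.90 ± 0.25 for Col4a2, both called. Col16a1 lost its call there (adjusted p = 0.078) and in the difference between iWAT and eWAT (adjusted p = 0.089), the latter also without Ctrl_CE replicate 3 of eWAT (adjusted p = 0.063).

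The effect of MetR_RT in iWAT minus that in iBAT was called for none of 31 members by edgeR (3.67% of all genes called), with 5 at an unadjusted p under 0.05 and 0 called with the mouse as a block. For Col1a1 the difference was -0.72 ± 0.50 (adjusted p = 0.51). Against eWAT it was called for 4 of 33 members (3.52% of all genes called), all lower in iWAT: Col12a1 by -2.31 ± 0.45, Col5a1 by -1.05 ± 0.33, Col5a2 by -1.04 ± 0.30 and Col18a1 by -0.93 ± 0.28. For Col1a1 the difference was -1.54 ± 0.55 (adjusted p = 0.089). Both eWAT counts grew with other settings, to 13 and 8 members with all deposited libraries and to 11 and 11 with the mouse as a block. Across tissues, Col1a1, Col1a2 and Col3a1 were lower in MetR_CE in 4 of 4 tissues, and Col20a1 was lower in Ctrl_CE in 4 of 4. Of the 10916 genes of at least 1 CPM in all 4 tissues, 12 (0.11%) were lower in 4 of 4 in MetR_CE and 9 (0.0824%) in Ctrl_CE. The eWAT call of Col20a1, which completes its count, was lost in 5 of 11 fits that left out 1 library and in the fit of only the groups compared.

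The class sums put these changes on the scale of the whole collagen pool, as a description with no test. In iWAT the fibrillar sum had medians of 18679.8, 5992, 4305 and 2389 CPM in Ctrl_RT, Ctrl_CE, MetR_RT and MetR_CE, while the basement membrane sum had 3533, 2802, 3182 and 3171. The fibrillar share of all collagen counts thus had medians of 75.96%, 59.0%, 51.4% and 39.2%. In iBAT the share was 34.1%, 19.4%, 27.4% and 16.99%, in eWAT 44.3%, 40.96%, 39.2% and 32.7%, and in liver 9.71%, 12.2%, 8.03% and 6.01%. MetR_CE had the lowest median share in each tissue.

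**Figure D4:**
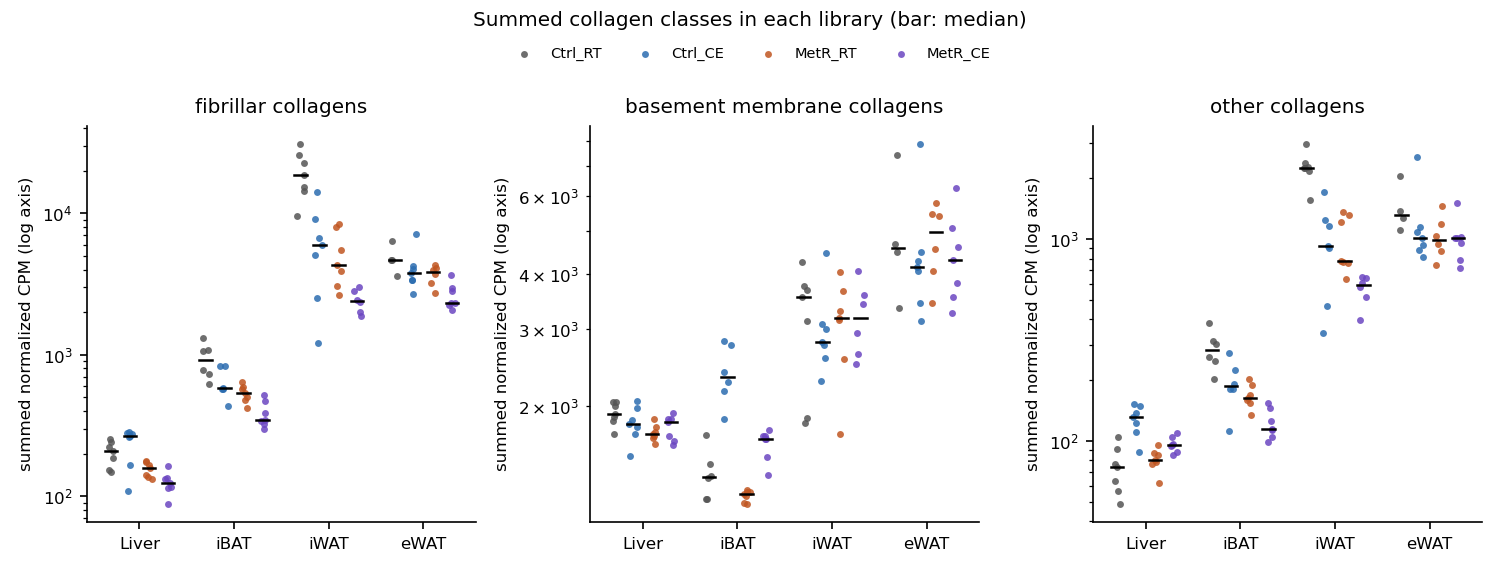
Summed CPM of fibrillar, basement membrane and other collagens per library, by tissue and group, on a log axis; points are mice and bars group medians. The fibrillar medians of iWAT step from 18679.8 in Ctrl_RT to 2389 in MetR_CE, and the basement membrane medians stay between 2802 and 3533.

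Chains that share a trimer moved close together, though not in lockstep. The trimer of type I holds more Col1a1 than Col1a2 chains. Per length, the ratio of Col1a1 to Col1a2 RNA over all groups had a median of 0.923 in iBAT, 0.843 in iWAT, 0.639 in eWAT and 0.519 in liver. In iWAT it ran from 0.894 to 1.27 in Ctrl_RT and from 0.554 to 0.796 in MetR_CE without overlap, and in eWAT from 0.650 to 0.754 and from 0.490 to 0.612, again apart. In iBAT these groups overlapped.

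The type IV pair, which lies head to head on chromosome 8 with starts a few bases apart (GENCODE on GRCm38, Col4a1 11198423 to 11312826 on the minus strand, Col4a2 11312805 to 11449287 on the plus strand), also changed its balance. In iWAT the ratio of Col4a1 to Col4a2 ran from 1.47 to 1.68 in Ctrl_RT, 1.09 to 1.38 in Ctrl_CE, 1.28 to 1.44 in MetR_RT and 1.15 to 1.31 in MetR_CE. The controls were thus above all other groups, although neither chain was called. In iBAT it ran from 1.18 to 1.26 in Ctrl_RT and from 1.17 to 1.30 in MetR_RT, above the 1.01 to 1.14 of Ctrl_CE and the 1.03 to 1.15 of MetR_CE. In eWAT it ran from 1.204 to 1.504 in Ctrl_RT and from 1.057 to 1.183 in MetR_CE, without overlap. Ctrl_CE (1.026 to 1.331) and MetR_RT (1.164 to 1.320) of eWAT overlapped its controls. Liver groups overlapped between 0.840 and 1.19. The ratio of Col6a1 to Col6a2 had a median of 1.18 in iWAT and 1.28 in iBAT, where MetR_CE (1.34 to 1.49) stood above Ctrl_RT (1.11 to 1.31). These ratios were looked at after the levels and carry no test.

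Genes that make, trim, bind and break down collagen were counted in lists. Collagen is hydroxylated and folded in the endoplasmic reticulum, cleaved and cross-linked outside the cell and removed by metalloproteinases. The breakdown list also holds Timp1, Timp2, Timp3 and Timp4, inhibitors of these enzymes, so its counts do not tell whether breakdown rose or fell. Most list genes lay above 1 CPM, so each count stands beside the share of genes of at least 1 CPM called in that direction. In iWAT 12.2%, 9.62% and 16.3% of these were lower in Ctrl_CE, MetR_RT and MetR_CE and 8.25%, 6.34% and 11.6% higher. Of 22 genes for modification and folding, 7, 8 and 11 were lower in Ctrl_CE, MetR_RT and MetR_CE and none higher. The falls included Creb3l1, a transcription factor that drives type I collagen genes (-1.70, -1.49 and -2.09), and Fkbp10, a procollagen chaperone (-1.47, -1.502 and -2.15). Of 13 genes for propeptide cleavage and cross-linking, 7, 8 and 8 were lower, among them Loxl2, a lysyl oxidase (-1.35, -1.52 and -2.38), and Pcolce, which speeds propeptide removal (-1.29, -1.37 and -2.18). Of the modification list, 3 interactions were called, all positive, in Creb3l1 (1.09), the lysyl hydroxylase Plod2 (1.05) and the prolyl hydroxylase subunit P4ha2 (0.59).

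The partners of the fibrils fell beside them in iWAT. Of 16 fibril-associated proteins, 10, 9 and 14 were lower, among them Fbn1, the main fibrillin (-2.13 in Ctrl_CE and -3.30 in MetR_CE), Fn1, fibronectin (-2.67 in MetR_CE), and Postn, periostin (-2.12 in MetR_RT). The breakdown list, enzymes and inhibitors together, had 6, 8 and 11 of 13 genes lower and 0, 0 and 2 higher. Its leading genes were Timp1, an inhibitor of the metalloproteinases (-3.51, -3.83 and -5.71), and the enzymes Mmp3 (-2.76) and Mmp2 (-1.87) in MetR_CE. Of 12 receptors, 3, 2 and 6 were lower and 1 higher in MetR_CE, led by Lair1, an inhibitory collagen receptor of leukocytes (-1.42, -1.91 and -2.72). Of 15 genes around TGF-beta, the cytokine that drives collagen synthesis, 2, 1 and 3 were lower and 1, 0 and 3 higher, and of 16 basement membrane partners 5, 2 and 4 were lower and 0, 1 and 2 higher. For the TGF-beta list these counts were near the share over all genes, and for the basement membrane partners those of MetR_RT and MetR_CE were.

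In iBAT 6.89%, 0.835% and 6.01% of genes of at least 1 CPM were higher in Ctrl_CE, MetR_RT and MetR_CE and 10%, 2.5% and 10.9% lower. P4ha1 and P4ha2, the catalytic prolyl hydroxylase subunits, rose by 0.80 and 0.96 in Ctrl_CE and by 1.04 and 0.90 in MetR_CE. Creb3l1 fell in all 3 comparisons (-0.85, -1.01 and -1.30). In this list 2, 0 and 2 of 21 genes were higher and 1, 2 and 2 lower, near those shares in the cold. Of 13 cleavage and cross-linking genes 1, 0 and 1 were higher and 2, 4 and 5 lower, with Loxl1, an elastin cross-linker, at 0.96 and Lox at -0.94 in Ctrl_CE. Of 13 genes of the breakdown list, enzymes and inhibitors together, 1, 5 and 8 were lower and none higher. Mmp2 was at -1.19 and -1.30 in MetR_RT and MetR_CE. Fibril-associated proteins had 1, 4 and 6 of 16 lower and 1, 0 and 0 higher, and receptors 0, 1 and 4 of 12 lower. Basement membrane partners had 2, 0 and 0 of 15 higher and 1, 1 and 3 lower. In Ctrl_CE, Nid2, a nidogen that ties laminin to type IV collagen, and Lama5, a laminin chain, rose by 0.88 and 0.75 beside Col4a1 and Col4a2, and Pxdn, the peroxidase that cross-links type IV collagen, fell by 0.96. In the TGF-beta list 3, 0 and 3 of 15 were higher and 2, 0 and 2 lower.

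In liver the basement membrane partners stood out by count, with 10, 1 and 9 of 16 higher and 1, 1 and 1 lower in Ctrl_CE, MetR_RT and MetR_CE, where 10.1%, 3.93% and 8.79% of genes of at least 1 CPM were higher and 4.68%, 4.8% and 7.68% lower. Hspg2, the proteoglycan perlecan, rose by 1.43 and 1.30, Pxdn by 1.13 and 1.37 in Ctrl_CE and MetR_CE, and the laminin chain Lama4 by 1.31 in MetR_CE. Timp3, a matrix-bound inhibitor, rose by 1.49 and 1.82, and Loxl4, a lysyl oxidase, fell by 1.14, 1.81 and 1.89 in the 3 comparisons. The other lists had 4, 0 and 2 of 21 genes for modification, 5, 0 and 1 of 12 for cross-linking, 4, 0 and 1 of 15 fibril-associated, 3, 0 and 1 of 12 for breakdown, 4, 1 and 3 of 12 receptors and 5, 2 and 3 of 15 around TGF-beta higher. Lower were 1, 0 and 0 for modification, 1, 1 and 1 for cross-linking, 0, 2 and 1 receptors, 1, 0 and 2 around TGF-beta and none of the remaining lists. In eWAT at most 2 genes of any list were called in a comparison. They included Postn in Ctrl_CE (-0.78) and MetR_RT (-1.197), and Pcolce (-0.86), Timp3 (0.74) and P4ha2 (0.68) in MetR_CE.

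**Figure D5:**
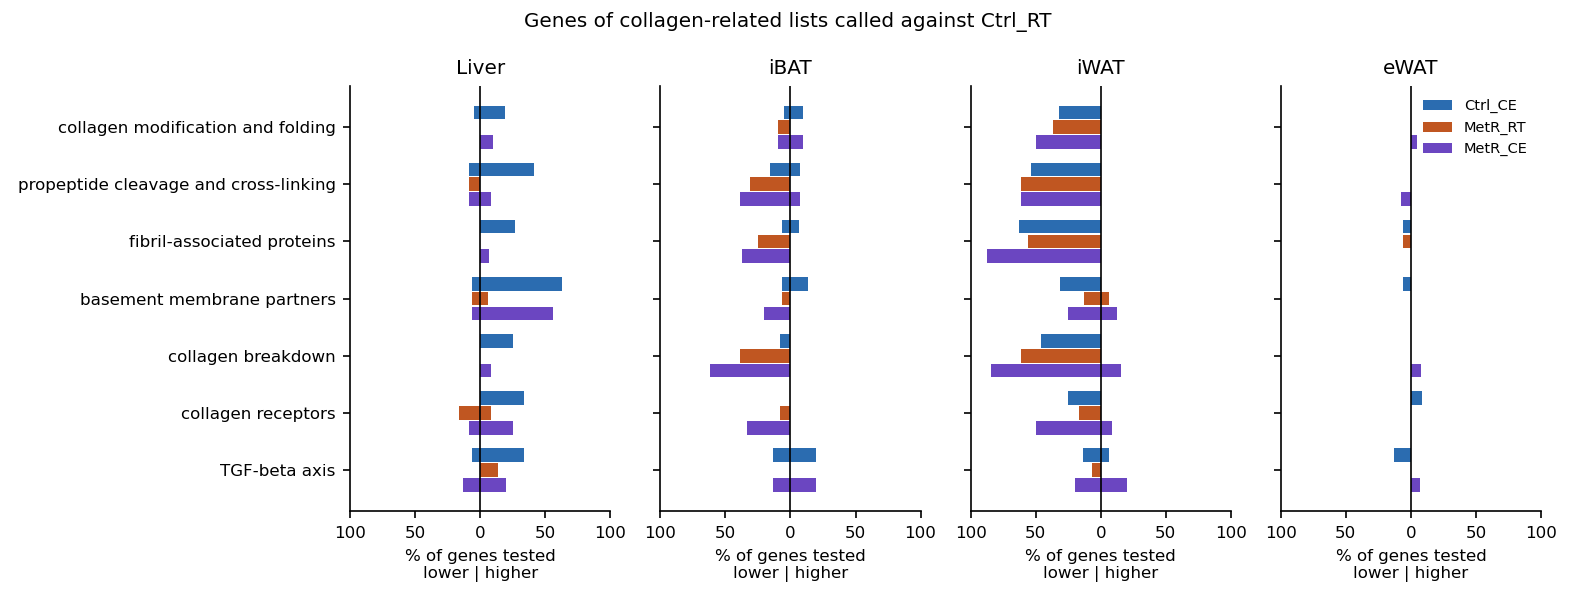
Share of the tested genes of each collagen pathway list called lower (to the left) or higher (to the right), in percent, by tissue and comparison. The bars of iWAT point left in every list of fibril-building genes, with 14 of 16 fibril-associated proteins lower in MetR_CE, and those of the basement membrane partners of liver point mostly right in Ctrl_CE and MetR_CE.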

How the data were processed

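Polyadenylated RNA of 4 tissues of 28 mice was sequenced, and the authors deposited raw counts per gene in 3 tables, with iBAT and iWAT in 1 table. Per the study's methods, reads were aligned with STAR 2.7.9a and counted with featureCounts 2.0.3 and, in parallel, with Salmon 1.9.0, and which of these made the deposited counts is not given in the sources used here. Reads shared by near-identical chains could be split differently by each. Gene IDs were paired with symbols for 51948 of 56884 rows.

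Samples were grouped by their titles. In each tissue the 4 groups were fitted together in edgeR 4.0.16 (R 4.3.3) with TMM scaling and the quasi-likelihood test, over genes with at least 10 counts in all, and p-values were adjusted by Benjamini-Hochberg over all genes tested (22143, 23915, 26428 and 27786 in liver, iBAT, iWAT and eWAT). A gene was called at an adjusted p under 0.05 and at least 1.5-fold. Differences between tissues came from 1 fit over 105 libraries. Shares over all genes, given for that fit and with the left-out libraries, include genes below 1 CPM, which the members exclude. CPM are TMM-scaled within a tissue, except where a joint scale is named. Errors after ± of log2 values are SE. Intervals of mean CPM are SD.

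The alternatives comprised DESeq2 1.42.0, either unshrunk or shrunk by apeglm 1.24.0, limma voom 3.58.1 with the mouse as a block, other scaling, other filters, a replicate block, only the groups compared, the left-out libraries, the treatment tags and leaving out single libraries, of which those of iBAT and iWAT, and of Ctrl_CE replicate 3 in the joint fit, were chosen after seeing the data. The left-out libraries were inferred from the omitted number per group and the mean normalized counts of the study's source data. The statistics were tested on simulated data. The members, lists and tests were chosen with earlier results of these data known. By the rule for named genes, the 6 called members of largest change in each comparison, the 3 most abundant of each class in each tissue, the members at the 1 CPM limit and the paired chains were given with values. The values of 1 list gene are not reported here. Promoter sequences were read from RefSeq on GRCm38.p6.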

Additional observations from a re-analysis of the deposited data

Results flagged for a closer look

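In eWAT, Ctrl_CE replicate 3 lay far above the other libraries of its group in every class. It had 7874 CPM of summed basement membrane collagens (next highest 4472), 7109.8 of fibrillar (4229) and 2547 of other collagens. Single genes stood out in it as well, with 2618 CPM of Col3a1, 3371 of Col4a1, 2802 of Col4a2, 997.7 of Col6a1 and 1010.4 of Col6a2. Without it, 4 members rather than 1 were lower in Ctrl_CE. In iWAT, Ctrl_CE replicate 3, a library of the same mouse, was highest of its group in the basement membrane sum (4448 CPM), Col4a1 (2002 CPM) and Col4a2 (1565 CPM). In eWAT MetR_CE, replicate 6 was highest in the other collagens (1516 CPM) and Col3a1 (834 CPM), and in liver MetR_CE, replicate 5 in Col3a1 (24.5 CPM). These 14 values lay beyond Dixon's 95% limit among 160 groups examined, and chance passes that limit in about 1 of 20 groups. The groups were not independent, since the class sums hold the single genes and share their libraries. Most of the values came from the mouse of Ctrl_CE replicate 3, so they are not 14 separate outliers.

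Effects that differed between conditions or tissues by a test of the difference, on the log2 scale, were the interactions of Col14a1 in liver (-0.82, a call lost under the replicate block) and Col12a1 in iWAT (2.19, a call lost with apeglm shrinkage). The cold effect in iBAT minus that in iWAT was called for Col4a1 (0.91), Col4a2 (0.79), Col8a1 (1.02), Col16a1 (1.197) and Col23a1 (-1.24), with Col16a1 no longer called without Ctrl_CE replicate 3 of iWAT. The cold effect in iWAT minus that in eWAT was called for Col12a1 (-2.61) and Col16a1 (-1.24), the latter lost without Ctrl_CE replicate 3 of either depot, and the MetR_RT effect in iWAT minus that in eWAT for Col12a1 (-2.31), Col5a1 (-1.05), Col5a2 (-1.04) and Col18a1 (-0.93). Among libraries not compared, Ctrl_CE replicate 5 of iBAT had 2135 CPM of basement membrane collagens, above every Ctrl_RT library of iBAT.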

How the results depend on the processing

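No called member changed direction under any alternative, and the counts of called members stayed within 1.5 times the reported count except as follows. With DESeq2 and apeglm shrinkage 1 member was called in Liver MetR_RT, 0 in the iWAT interaction (Col12a1 lost), 3 in eWAT MetR_RT and 1 in the eWAT interaction. With DESeq2 without shrinkage the counts were 2 in eWAT Ctrl_CE, 3 in eWAT MetR_RT and 1 in the eWAT interaction. A stricter filter on low counts gave 1 in the eWAT interaction, the fit of only the groups compared 0 in eWAT Ctrl_CE, and all libraries of the tissue 2 in eWAT Ctrl_CE and 9 in eWAT MetR_CE. With all deposited libraries, 13 and 8 members were called for the Ctrl_CE and MetR_RT effects in iWAT minus eWAT, and with the mouse as a block 11 and 11. The cause of these shifts was not tested.

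Leaving out 1 library gave 0 to 2 calls in the iBAT interaction (2 without Ctrl_CE replicate 4, Col8a1 and Col13a1), 0 to 4 in eWAT Ctrl_CE (4 without Ctrl_CE replicate 3 and 0 without Ctrl_RT replicates 1, 3 or 7 or Ctrl_CE replicates 6 or 7) and 0 to 1 in the eWAT interaction (Col11a2, without MetR_RT replicate 1 or Ctrl_CE replicates 2 or 4). The cold effect in iWAT minus that in eWAT kept 1 of its 2 calls without Ctrl_CE replicate 3 of iWAT or of eWAT, fits chosen after seeing the data. In iBAT Ctrl_CE the range was 12 to 19, with 19 without Ctrl_CE replicate 3. Liver had no such fits.

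The same replicate number in different groups names different mice, and deviations of same-numbered libraries correlated with a median r of -0.0026, -0.0051, 0.083 and 0.11 in liver, iBAT, iWAT and eWAT, beside 0.0065, -0.019, -0.0060 and -0.019 between other numbers. Of 28, 26, 27 and 24 libraries, 2, 5, 4 and 7 correlated best with one of their own number. Not every pair was over 0.1, and no label ties the numbers to a shared batch, so they were not taken as pairing. The replicate block moved the liver interaction to 0 calls (Col14a1 lost), left eWAT Ctrl_CE at 1 and gave 15, 16 and 18 calls in iWAT Ctrl_CE, MetR_RT and MetR_CE. The control group of eWAT had 4 libraries.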
